A study of Mus musculus with 12 samples.

Results

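The nuclear genes for the subunits of respiratory chain complexes I to IV were followed across the 4 groups of a mouse leukemia array study. A gene was taken as a member when a probe set carried exactly 1 platform gene symbol of the families Nduf, Sdh, Uqcr or Cox4 to Cox8. The probe set with the highest mean over the 12 arrays stood for the gene. This gave 62 of the 22180 genes with such a probe set, of which 31 belong to complex I, 4 to complex II, 8 to complex III and 19 to complex IV. Ndufa4 and Ndufa4l2 carry complex I names and were counted with complex IV, where their proteins are now placed. Values are log2 intensities, that is, the logarithm to base 2 of the brightness of a probe set. A gene was tested when its mean was above 4.72, the level below which the lowest 25% of probe sets lay, and 59 members were. The untested members were Cox7b2 and Cox8c of complex IV, and the pseudogene Uqcrh-ps1.

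The leukemias were driven by the fusion oncogene MLL-AF9 in C57BL/6J mice. Recipients lethally irradiated with 10 Gy received 50000 MLL-AF9 bone marrow stem and progenitor cells that were either AMPKfl/fl, here called wild type, or AMPKΔ/Δ, here called knockout. At leukemia onset, 5000 bone marrow cells were sorted as whole leukemia (all GFP+ cells) or as L-GMP, the leukemia-initiating fraction (GFP+, lineage-negative, c-kit+, CD16/32+, CD34+), and the RNA was amplified before labelling. Each of the 4 groups held 3 arrays, written below as arrays 1 to 3. All groups share MLL-AF9, the irradiation of the host and the amplification. The labels do not say which AMPK gene was deleted, what drove the deletion, or whether arrays of a group came from separate recipients, so the p-values reflect array-to-array spread that may be technical in origin.

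The respiratory chain passes electrons from NADH and succinate to oxygen. Complex I takes electrons from NADH and complex II, which is succinate dehydrogenase of the citric acid cycle, takes them from succinate. Complex III hands them to cytochrome c and complex IV, cytochrome c oxidase, hands them to oxygen, and complexes I, III and IV pump protons that drive ATP synthase. Most subunits are nuclear-encoded, and several complex IV subunits come as isoform pairs with one broad and one tissue-restricted form. AMPK is a kinase that senses a low energy state and is known for promoting mitochondrial biogenesis and turnover in several tissues.

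Promoter sequences of 4 members are shown because the results turn on 1 isoform pair, Cox6b2 and Cox6b1, and because Cox6a1 and Sdhd hold the motifs most often linked to respiratory chain genes. They are RefSeq sequences of build GRCm38.p6 from 250 bases before to 50 bases after the gene start, given 5′ to 3′ on the gene's strand, which is the minus strand for all 4. The positions are chr7:4753045-4753344 for Cox6b2, chr7:30626065-30626364 for Cox6b1, chr5:115348909-115349208 for Cox6a1 and chr9:50603800-50604099 for Sdhd. Capitals mark matches on either strand to 6 motifs, none of which overlap here. For NRF1 the motif was GCGCA, then any base, then GCGC. The others were CCGGAAG for the ETS family, AAGATGGC for YY1, GGGGCGGGG for the SP family, CCAAT for NF-Y and TATAAA for the TATA box.
Cox6b2: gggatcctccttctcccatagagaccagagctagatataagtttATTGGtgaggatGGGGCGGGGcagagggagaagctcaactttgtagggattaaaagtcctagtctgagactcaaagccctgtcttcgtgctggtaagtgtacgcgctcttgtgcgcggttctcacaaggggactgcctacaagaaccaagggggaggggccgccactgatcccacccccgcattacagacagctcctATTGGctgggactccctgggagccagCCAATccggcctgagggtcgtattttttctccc
Cox6b1: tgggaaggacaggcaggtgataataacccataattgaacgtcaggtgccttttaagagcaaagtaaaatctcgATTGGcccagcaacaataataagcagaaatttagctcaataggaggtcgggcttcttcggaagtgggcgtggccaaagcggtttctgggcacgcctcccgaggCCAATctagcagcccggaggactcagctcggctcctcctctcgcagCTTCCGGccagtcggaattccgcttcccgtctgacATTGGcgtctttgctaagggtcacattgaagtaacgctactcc
Cox6a1: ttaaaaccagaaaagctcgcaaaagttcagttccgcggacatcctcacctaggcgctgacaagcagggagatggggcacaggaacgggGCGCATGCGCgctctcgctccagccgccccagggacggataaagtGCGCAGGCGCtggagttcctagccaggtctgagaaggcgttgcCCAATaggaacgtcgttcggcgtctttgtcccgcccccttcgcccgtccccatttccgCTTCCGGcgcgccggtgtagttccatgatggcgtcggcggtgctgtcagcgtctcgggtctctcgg
Sdhd: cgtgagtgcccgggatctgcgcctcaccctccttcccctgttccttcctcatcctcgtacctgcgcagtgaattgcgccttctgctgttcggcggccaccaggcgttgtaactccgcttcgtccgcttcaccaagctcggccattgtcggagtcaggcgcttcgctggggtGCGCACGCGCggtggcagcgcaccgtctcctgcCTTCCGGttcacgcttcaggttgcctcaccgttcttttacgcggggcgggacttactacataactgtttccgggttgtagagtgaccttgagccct

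A promoter entry was found for 49 of the 62 members, in 51 promoters. The NRF1 motif was in 10 of these 51 (19.6%), against 4.6% of all 32851 promoters in the table. The genes were Cox6a1, Ndufa11, Ndufa5, Ndufa6, Ndufa8, Ndufs5, Sdha, Sdhd and Uqcrc1. The ETS motif was in 11 member promoters (21.6%, against 8.86% of all) and the YY1 motif in 6 (11.8%, against 2.75%). The other motifs were at shares near those of all promoters, with 13.7% against 11.4% for SP, 33.3% against 37.4% for NF-Y and 13.7% against 13.6% for the TATA box. The Cox6b2 promoter held the SP and NF-Y motifs and no match to the NRF1, ETS or YY1 letters, while the Cox6b1 promoter held NF-Y and ETS matches. These are matches of letters only.

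The array medians lay between 36.9 and 39.3 in intensity, and the 12 arrays correlated with each other at 0.902 to 0.986. Prkaa1, which encodes a catalytic AMPK subunit, was 8.24 ± 0.49 (SD, n = 3) in wild-type and 7.27 ± 0.27 (SD, n = 3) in knockout whole leukemia, and 8.15 ± 0.17 (SD, n = 3) and 7.0 ± 0.27 (SD, n = 3) in L-GMP. The knockout arrays lay below the wild-type arrays in both populations. Prkaa2, the other catalytic subunit gene, lay between 4.66 and 5.05 on every array. Cd34, a marker of the L-GMP gate, was 9.76 ± 0.25 (SD, n = 3) in wild-type and 9.67 ± 0.22 (SD, n = 3) in knockout L-GMP. In whole leukemia it was 8.74 ± 0.56 (SD, n = 3) and 6.41 ± 0.78 (SD, n = 3). The other gate genes did not all follow Cd34. Kit averaged 7.0 in wild-type and 7.5 in knockout whole leukemia, and 7.56 and 8.64 in L-GMP. Fcgr3 averaged 9.27 and 8.94 in whole leukemia, and 8.95 and 9.02 in L-GMP. For Fcgr2b the means were 7.42 and 6.85, and 7.37 and 7.32.

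Knockout whole leukemia array 2 and knockout L-GMP array 2 stood apart, and the counts of members and lists that rest on them are also given without both of these arrays. On knockout whole leukemia array 2 the mean of the 15 neutrophil markers was 11.13, where the other whole leukemia arrays had 7.59 to 9.71. The mean of the 10 erythroid markers found there was 9.29, where the other 11 arrays had 5.33 to 6.20. On knockout L-GMP array 2 the mean of the eosinophil, basophil and mast cell markers was 7.45, where the other L-GMP arrays had 5.54 to 5.95. The mean of 17 G2/M genes was 6.84 on knockout whole leukemia array 3 and 6.80 on knockout L-GMP array 3, where the remaining arrays had 7.85 to 9.02. Leaving out the number-2 knockout arrays keeps these array 3 values and widens the G2/M difference. All 17 G2/M genes were then lower in knockout, with medians of -0.94 in L-GMP and -0.68 in whole leukemia. With all arrays the medians were -0.53 and -0.20. The part of these cells and of cycling in the results below was not tested. In bulk samples such as these, fewer cells of a type and less RNA per cell cannot be told apart.

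Many members shared their high and low arrays. Averaged over the 59 tested members, the deviation from each gene's mean over the 12 arrays was 0.28 on knockout L-GMP array 2, and 29 of the 59 had their highest value there. It was -0.23 on knockout whole leukemia array 2, where 24 of the 59 had their lowest value. The other 10 arrays lay between -0.13 and 0.20. Within the knockout whole leukemia array 2, complex II deviated by -0.44 and complex I by -0.30, and complexes III and IV each by -0.11. On knockout L-GMP array 2, complex III was at 0.42, complex I at 0.31, complex II at 0.30 and complex IV at 0.16. The median spread within groups was 0.226 for the members and 0.194 for all 17749 genes tested. It ran from 0.066 for Ndufa4l2, a hypoxia-induced relative of Ndufa4, to 0.419 for Ndufa9, an accessory complex I subunit. The mean of Ndufa4l2 was 4.90, near the filter level of 4.72.

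**Figure D1:**
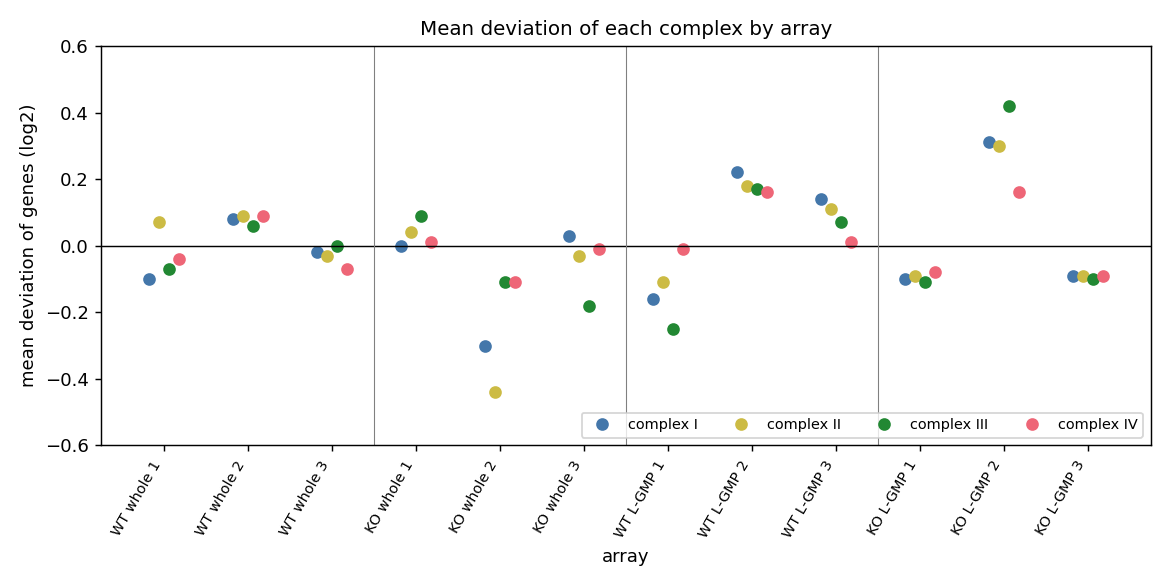
Mean deviation (log2) of the tested genes of each complex from their own means over the 12 arrays, for each array, with 1 point per complex. Knockout whole leukemia array 2 is low for every complex and knockout L-GMP array 2 is high for every complex.

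**Figure D2:**
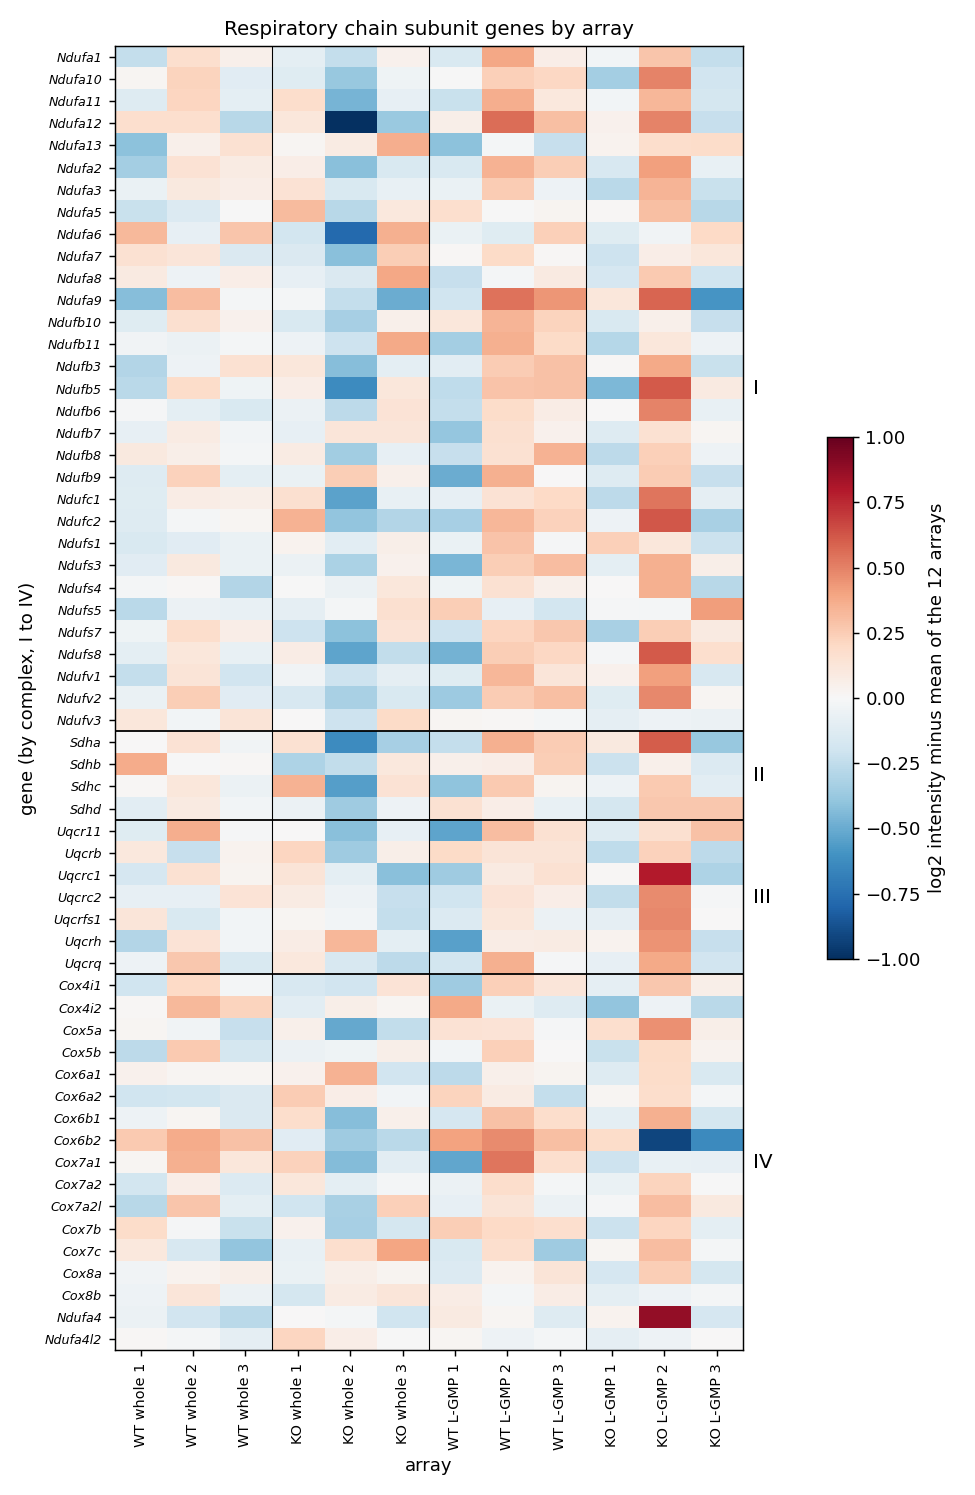
Log2 intensity minus the gene's mean over the 12 arrays, for the 59 tested genes in rows ordered by complex and the 12 arrays in columns. The dark cells gather in knockout whole leukemia array 2 and knockout L-GMP array 2, and the Cox6b2 row differs between genotypes.

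Some members went against the general direction of an array. On knockout whole leukemia array 2, 11 members lay above their own mean, led by Cox6a1 at 11.40, the broadly expressed form of subunit 6A, and Uqcrh at 9.05, the hinge protein of complex III. On knockout L-GMP array 2, 8 members lay below their own mean, and Cox6b2 lay furthest below, by -0.92.

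The comparison of knockout with wild-type L-GMP asked how loss of AMPK relates to respiratory chain genes in the leukemia-initiating fraction. Of the 59 tested members, 25 were higher and 34 lower in knockout, with a median log2 difference of -0.02 against 0.02 for all genes. By limma with adjustment over all 17749 genes, 0 members passed an adjusted p of 0.05, and 0.00563% of all genes did. Without that adjustment 2 members had p under 0.05, Cox6b2 and Ndufb10, where 4.13% of all genes did. The arrays of the groups did not overlap for 5 members, 1 higher (Ndufa13) and 4 lower (Cox6b2, Cox8b, Ndufb10 and Ndufv3), where 9.48% of all genes did not overlap, 5.82% higher and 3.66% lower. Complex I was higher for 10 and lower for 21 genes (median -0.03), complex II 2 and 2 (0.03), complex III 5 and 2 (0.13) and complex IV 8 and 9 (-0.03). Without both arrays numbered 2 of the knockout groups, 11 members were higher and 48 lower, with a median of -0.13. Complex I was then 5 higher and 26 lower (-0.19), complex II 1 and 3 (-0.15), complex III 2 and 5 (-0.11) and complex IV 3 and 14 (-0.08), so that the split of complex III turned round.

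In whole leukemia, the same comparison gave 20 members higher and 39 lower in knockout, with a median of -0.06 against 0.00 for all genes. Here limma passed 0 members at an adjusted p of 0.05, with 0% of all genes passing, and 1 member, Cox6b2, had an unadjusted p under 0.05, where 5.97% of all genes did. The arrays did not overlap for 3 members, with Cox6a2 higher and Cox6b2 and Ndufv2 lower, where 11.2% of all genes did not, 5.46% higher and 5.73% lower. Complex I was higher for 10 and lower for 21 genes (median -0.08), complex II lower for all 4 (-0.21), complex III 2 higher and 5 lower (-0.06) and complex IV 8 and 9 (-0.01). Without the number-2 arrays of the knockout groups the split was 31 higher and 28 lower, with a median of 0.01. Complex I turned to 20 higher and 11 lower (0.03), while complex II was 1 and 3 (-0.08), complex III 2 and 5 (-0.09) and complex IV 8 and 9 (0.00).

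Cox6b2, the testis-enriched isoform of complex IV subunit 6B, had the largest difference between genotypes of the 59 members in both populations. In wild-type whole leukemia its log2 intensity was 9.60, 9.71 and 9.63, and in knockout whole leukemia 9.22, 8.98 and 9.07. In L-GMP it was 9.74, 9.81 and 9.64 in wild type and 9.52, 8.42 and 8.70 in knockout. All 6 knockout arrays lay below all 6 wild-type arrays, with knockout L-GMP array 1 the nearest to wild type. The difference was -0.85 (SE 0.22, 95% interval -1.34 to -0.35) in L-GMP, which is 0.555 times the wild-type level, with a limma adjusted p of 0.864. In whole leukemia the difference was -0.55 (SE 0.22, 95% interval -1.05 to -0.06), which is 0.682 times, with a limma adjusted p of 0.827. Averaged over both populations it was -0.70 (SE 0.16, 95% interval -1.05 to -0.35), with a limma adjusted p of 0.249. Cox6b2 therefore did not pass the test in any comparison, although the 95% intervals of these 3 differences lay below 0.

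Whether Cox6b2 passed depended on knockout L-GMP array 1. Without that array the L-GMP difference was -1.17 and passed, with a limma adjusted p of 0.0265, and the difference averaged over populations was -0.86 with a limma adjusted p of 0.0118. Leaving out that array removes the knockout value nearest to wild type and so enlarges the difference. Markers of monocytes and macrophages also differed with genotype, with 12 of 12 lower in knockout L-GMP and 11 of 12 in knockout whole leukemia. Their mean level was 8.39 to 8.97 in wild-type and 7.25 to 8.05 in knockout whole leukemia, and 7.70 to 8.67 and 7.24 to 7.78 in L-GMP. Other lists also shifted with genotype. In whole leukemia, 14 of 15 neutrophil and 10 of 10 erythroid markers were higher in knockout, with medians of 1.4 and 1.75. Without the number-2 knockout arrays these medians were 0.81 and 0.48. The same markers in L-GMP split into 6 higher and 9 lower for neutrophils and 9 and 1 for erythroid cells. The G2/M median in L-GMP was -0.53, with all 17 values below 0. The part of any of these lists in the Cox6b2 result was not tested. With arrays weighted by their quality, the L-GMP difference of Cox6b2 was -0.48 and its limma adjusted p was 0.502. Without both number-2 knockout arrays, the Cox6b2 differences were -0.62 in L-GMP, -0.50 in whole leukemia and -0.56 on average, with limma adjusted p values of 0.799, 0.999 and 0.357. With 3 arrays against 3, an exact permutation test of a single value cannot go below 0.1. Over all genes, 0.625% were lower without overlap in both populations, and Cox6b2 was the 1 member that was.

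Its paralog Cox6b1, the broad isoform, was 9.82, 9.89 and 9.72 in wild-type whole leukemia and 10.04, 9.44 and 9.92 in knockout. In L-GMP it was 9.70, 10.16 and 10.04 in wild type and 9.77, 10.22 and 9.69 in knockout. Knockout and wild-type arrays of Cox6b1 overlapped in both populations. The genes next to Cox6b2, named after their values were seen, were Kmt5c, with differences of -0.17 in L-GMP and 0.04 in whole leukemia, and Tmem150b, with 0.01 and -0.42. On the other side Fam71e2 had 0.08 and 0.03, and Il11 had -0.13 and -0.02. None of these neighbours passed the limma test.

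**Figure D3:**
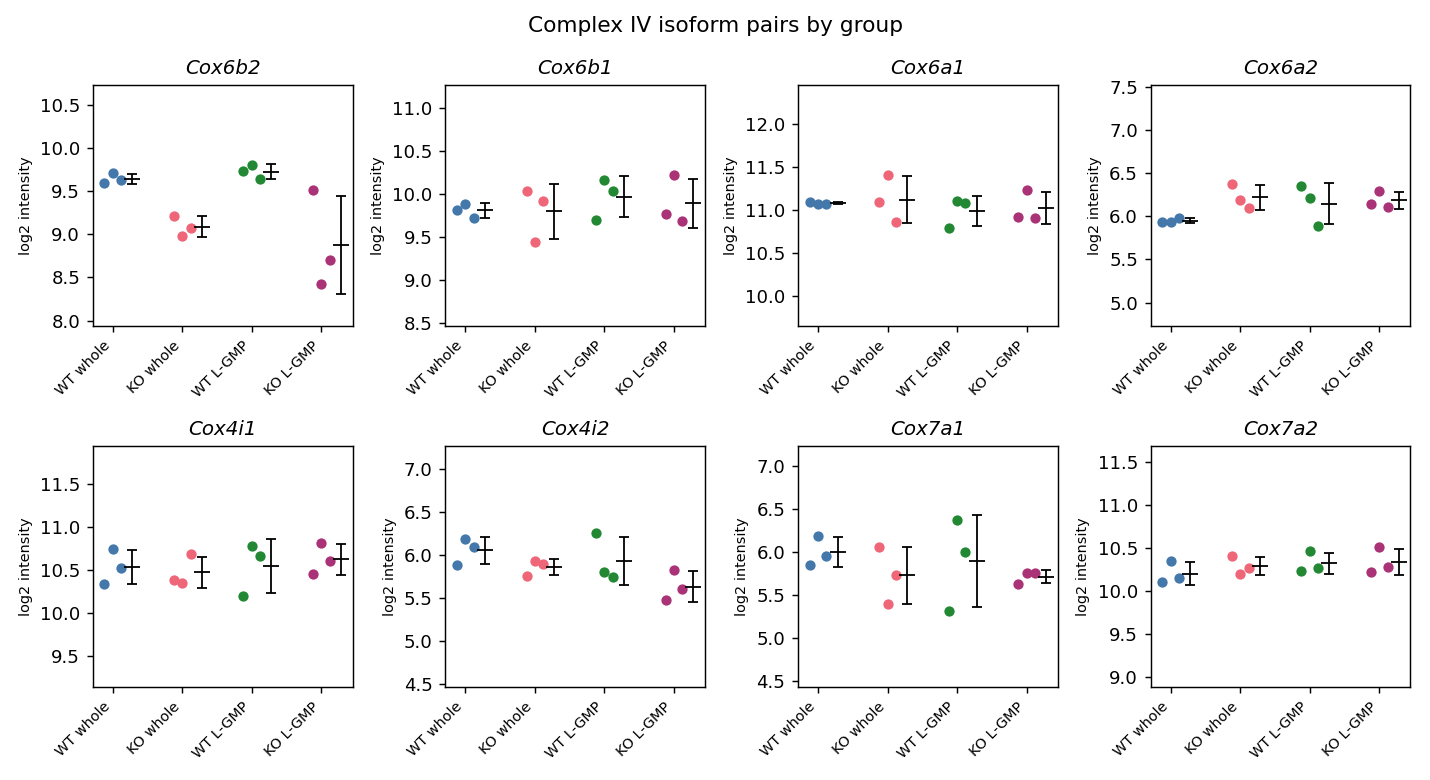
Log2 intensity of 4 complex IV isoform pairs in the 4 groups, with points for single arrays and a bar for the mean with SD (n = 3). The knockout points of Cox6b2 lie below the wild-type points, with 1 L-GMP knockout array close to them, and the other pairs overlap except for Cox6a2 in whole leukemia.

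The other isoform pairs of complex IV showed small differences. Cox6a2, the muscle form of subunit 6A, was 5.93, 5.94 and 5.98 in wild-type and 6.38, 6.19 and 6.10 in knockout whole leukemia. These did not overlap, with a difference of 0.27 (SE 0.12) and a limma adjusted p of 0.829. Its partner Cox6a1 averaged 11.08 and 11.12 there. Cox4i2, a form of subunit 4 linked to hypoxia, was 6.25, 5.80 and 5.74 in wild-type and 5.47, 5.82 and 5.60 in knockout L-GMP. The ranges overlapped, with a difference of -0.30 (SE 0.15). Cox7a1, the heart and muscle form of subunit 7A, differed by -0.18 (SE 0.24) in L-GMP and -0.27 (SE 0.24) in whole leukemia, and its broad partner Cox7a2 by 0.02 and 0.09. Cox7a2l, another gene of the subunit 7A family, differed by 0.14 and -0.06. Cox8a, the broad form of subunit 8, differed by -0.04 and -0.01, and Cox8b, its heart and muscle form in mouse, by -0.10 and 0.00.

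Cox7c, a small accessory subunit, was 6.83, 6.56 and 6.33 in wild-type and 6.65, 6.89 and 7.12 in knockout whole leukemia, a difference of 0.31 (SE 0.18) with overlap. Ndufa4 was 10.93, 11.78 and 10.73 in knockout L-GMP against 10.99, 10.92 and 10.77 in wild type. Its difference of 0.25 came from array 2 and was -0.06 without it.

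Among complex I genes, Ndufb10, an accessory subunit of the membrane arm, was 9.04, 9.27 and 9.15 in wild-type and 8.78, 8.98 and 8.70 in knockout L-GMP. The arrays did not overlap, with a difference of -0.33 (SE 0.13) and a limma adjusted p of 1. Ndufa13, also known as GRIM-19, was 8.71, 9.10 and 8.89 in wild-type and 9.15, 9.29 and 9.30 in knockout L-GMP. Again the arrays did not overlap, with a difference of 0.35 (SE 0.16) and a limma adjusted p of 1. Ndufa12, an accessory subunit, was 10.19, 10.19 and 9.74 in wild-type whole leukemia and 10.13, 8.99 and 9.65 in knockout, where array 2 was lowest. Its difference of -0.45 (SE 0.28) did not pass, and leaving out single arrays moved it between -0.72 and -0.15. Ndufa6 had a difference of -0.37 (SE 0.25) in whole leukemia, with array 2 at 8.62 and arrays 1 and 3 at 9.21 and 9.75, and -0.09 without the number-2 knockout arrays.

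The catalytic core was described by 12 genes, Ndufs1, Ndufs3, Ndufs7, Ndufs8, Ndufv1 and Ndufv2 of complex I, Uqcrc1, Uqcrc2 and Uqcrfs1 of complex III, and Cox4i1, Cox5a and Cox5b, nuclear-encoded partners of the complex IV core. In L-GMP 8 of the 12 were higher and 4 lower in knockout, with differences from -0.09 for Ndufs7 to 0.26 for Ndufs8, both iron-sulfur subunits. In whole leukemia 2 were higher and 10 lower, from -0.24 for Ndufv2 to 0.10 for Ndufs1, both of the arm of complex I that takes electrons from NADH. None of these passed limma, with a lowest adjusted p of 0.887. Without the number-2 knockout arrays the L-GMP split turned to 2 higher and 10 lower, with differences from -0.21 to 0.08, and in whole leukemia 4 were higher and 8 lower.

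Among the complex II genes, Sdha, the catalytic flavoprotein, was 8.53, 8.67 and 8.49 in wild-type and 8.68, 7.90 and 8.19 in knockout whole leukemia, where array 2 was lowest. The ranges overlapped, and its difference was -0.31 (SE 0.26) there and -0.02 (SE 0.26) in L-GMP. These were -0.13 and -0.26 when the number-2 knockout arrays were left out. The membrane anchors Sdhc and Sdhd differed by -0.04 (SE 0.23) and -0.14 (SE 0.14) in whole leukemia and by 0.07 and 0.08 in L-GMP. Sdhb, the iron-sulfur subunit of complex II, was 7.69, 7.31 and 7.33 in wild-type and 7.01, 7.07 and 7.42 in knockout whole leukemia. In L-GMP it was 7.37, 7.38 and 7.56 in wild type and 7.10, 7.37 and 7.18 in knockout. The groups overlapped in whole leukemia, and in L-GMP 1 knockout array was at the wild-type edge. Averaged over populations Sdhb differed by -0.25, with a limma adjusted p of 0.609. In complex III, Uqcrh differed by 0.21 in L-GMP and 0.17 in whole leukemia, and Uqcr11, a small accessory subunit, by 0.13 and -0.24. With the number-2 knockout arrays left out, Uqcrh differed by 0.02 and 0.05, and Uqcr11 by 0.10 and -0.11.

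Averaged over both populations, 23 members were higher and 36 lower in knockout, with a median of -0.03 against 0.01 for all genes. Leaving out the number-2 knockout arrays gave 16 higher and 43 lower, with a median of -0.07. No member passed limma at an adjusted p of 0.05, where 0.0338% of all genes did. At an unadjusted p under 0.05 there were 5 members, with Ndufa13 higher and Cox6b2, Ndufb10, Sdhb and Cox4i2 lower, where 7.72% of all genes passed. The 6 arrays of each genotype did not overlap for 1 member, Cox6b2, where 0.654% of all genes did not and 0.372% were lower without overlap. Both single-population comparisons enter this average. For 55 of the 59 members the 95% interval of this difference lay within 1.5-fold, and for 58 within 2-fold, Cox6b2 being the exception.

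The comparison of L-GMP with whole leukemia asked whether the leukemia-initiating fraction differs in respiratory chain genes. In wild type, 43 members were higher and 16 lower in L-GMP, with a median of 0.06 against 0.00 for all genes. The median of the members was -0.03 when array 2 of the wild-type L-GMP group was left out and 0.16 when array 1 was. In limma 0 members passed an adjusted p of 0.05, with 0% of all genes passing, and 0 members had an unadjusted p under 0.05, where 2.50% of all genes did. Complex I was higher for 25 and lower for 6 (median 0.10), complex II for 2 and 2 (0.03), complex III for 3 and 4 (-0.01) and complex IV for 13 and 4 (0.04). Uqcrb, a complex III subunit that helps hold ubiquinone, was 9.24, 8.90 and 9.17 in whole leukemia and 9.32, 9.26 and 9.26 in L-GMP. It was the 1 member whose arrays did not overlap, where 10.3% of all genes did not and 4.89% were higher without overlap. Ndufa9 differed by 0.31 (SE 0.31) and Cox7b, an accessory complex IV subunit, by 0.22 (SE 0.14).

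In knockout, 40 members were higher and 19 lower in L-GMP, with a median of 0.10 against 0.01 for all genes. Limma passed 0 members at an adjusted p of 0.05, with 0% of all genes passing. Cox5a, a subunit of complex IV, was the 1 member with an unadjusted p under 0.05, where 7.39% of all genes did. It was 10.38, 9.82 and 10.09 in whole leukemia and 10.50, 10.79 and 10.39 in L-GMP. The groups did not overlap, with a difference of 0.46 (SE 0.15) and a limma adjusted p of 0.671, and the difference was 0.21 without the number-2 knockout arrays. Ndufv2 was also higher without overlap, where 10.2% of all genes did not overlap and 5.49% were higher. Complex I was higher for 23 and lower for 8 (median 0.16), complex II for 4 and 0 (0.16), complex III for 5 and 2 (0.14) and complex IV for 8 and 9 (-0.02). Without the number-2 arrays, 12 members were higher and 47 lower, with a median of -0.09. The splits were then 6 and 25 for complex I (-0.10), 1 and 3 for complex II (-0.06), 2 and 5 for complex III (-0.06) and 3 and 14 for complex IV (-0.09).

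Ndufa12 had the largest positive difference of the members in knockout, at 0.54 (SE 0.28), followed by Ndufs8 at 0.49 (SE 0.23), both without passing. Their values on whole leukemia array 2 were 8.99 and 7.74, the lowest of that group. Without the number-2 knockout arrays the difference was 0.04 (SE 0.23) for Ndufa12 and 0.16 (SE 0.24) for Ndufs8. Averaged over genotypes, 42 members were higher and 17 lower in L-GMP, with a median of 0.09 against 0.00. Again 0 members and 0% of all genes passed limma, and 1 member, Cox5a, had an unadjusted p under 0.05, where 7.52% of all genes did. Its difference was 0.32 (SE 0.11), with a limma adjusted p of 0.661. No member was free of overlap between the 6 arrays of each population, where 0.355% of all genes were. Without the number-2 knockout arrays the split was 26 higher and 33 lower, with a median of -0.02.

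**Figure D4:**
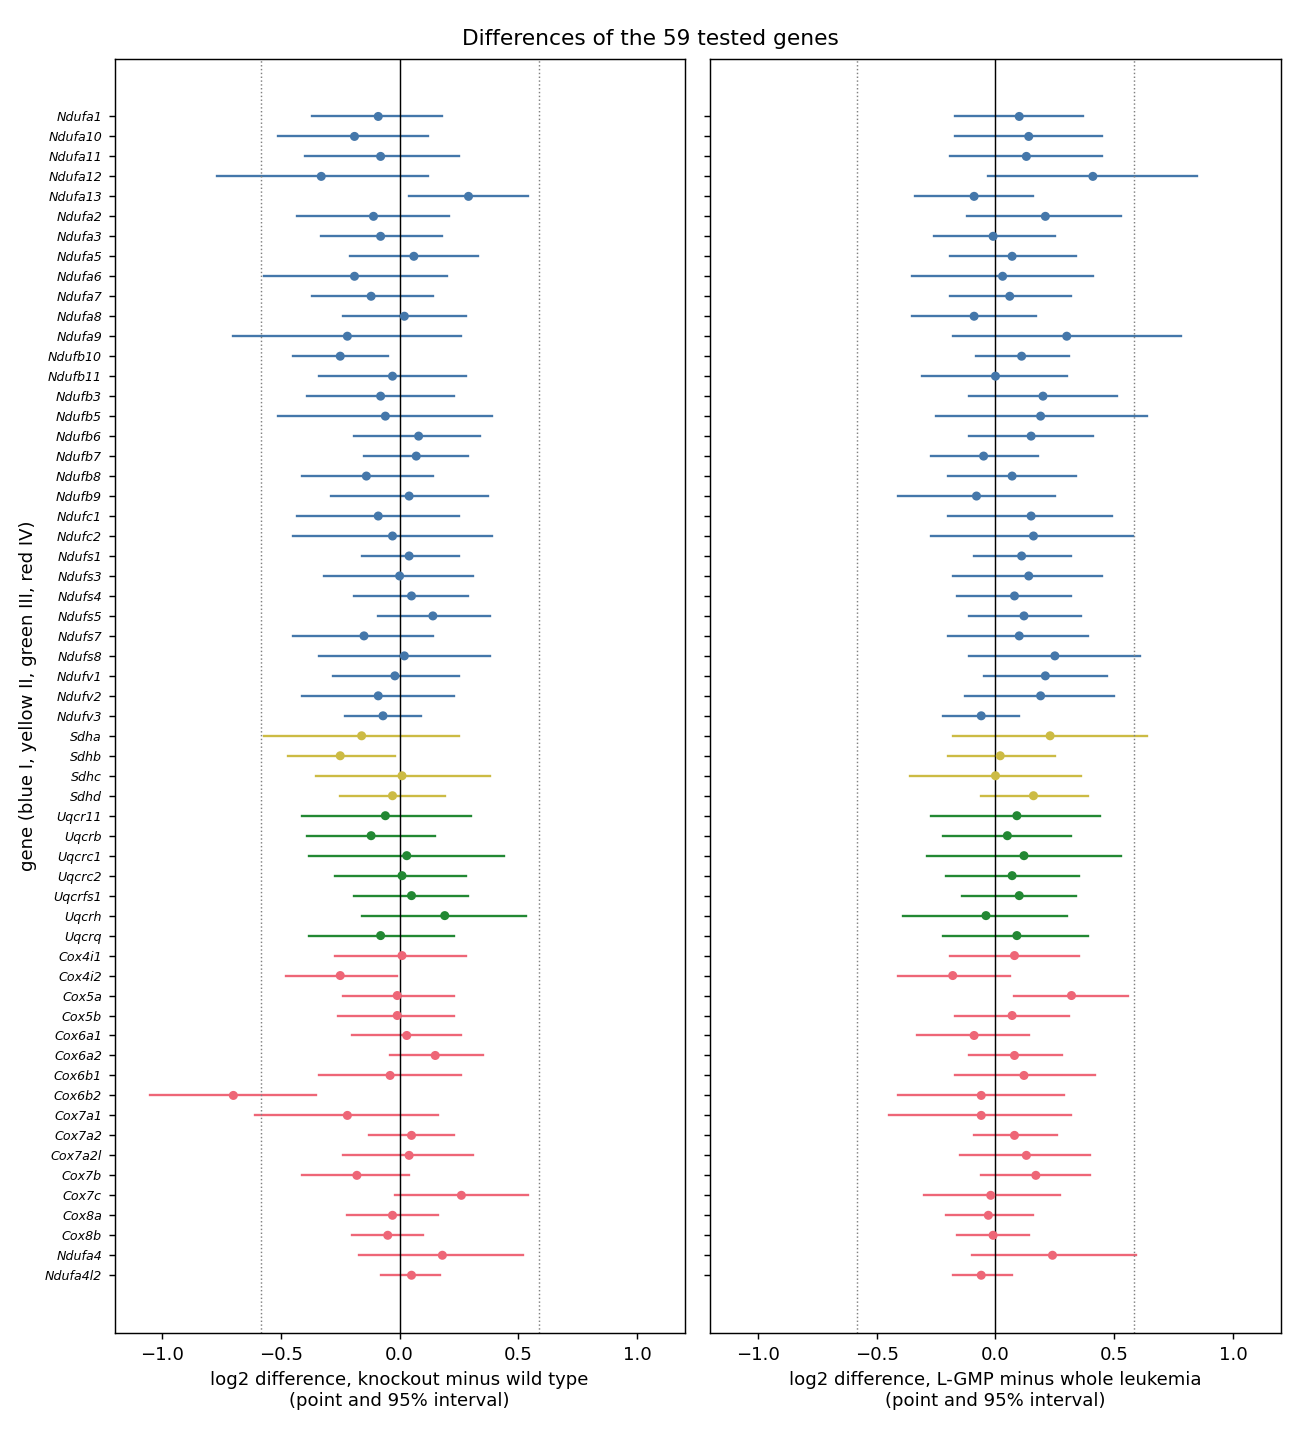
Log2 difference with 95% interval for the 59 tested genes, knockout minus wild type averaged over both populations (left) and L-GMP minus whole leukemia averaged over both genotypes (right). Dotted lines mark 1.5-fold, and the points of most genes lie near 0, with Cox6b2 at -0.70 on the left.

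A term for the difference between the genotype effects of the populations passed 0 members by limma, with 0% of all genes passing, and 0 members had an unadjusted p under 0.05, where 2.06% of all genes did. The largest terms were 0.48 (SE 0.32) for Ndufs8 and -0.30 (SE 0.32) for Cox6b2. Their 95% intervals spanned 0.

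Genes outside the 4 families, from lists of respiratory chain function, also had 0 passing members in each comparison. Of the 10 mitochondrially encoded subunits tested, 9 were lower and 1 higher in knockout L-GMP, with a median of -0.19 against 0.02 for all genes. Their arrays did not overlap for 5 of the 10, led by ND6 at -0.31 (SE 0.09), where 9.48% of all genes did not overlap and 3.66% were lower without overlap. In wild type all 10 were higher in L-GMP than in whole leukemia, with a median of 0.21 against 0.00. Without the number-2 knockout arrays the L-GMP genotype values were 1 higher and 9 lower, with a median of -0.19. The comparisons share the wild-type L-GMP arrays. Between genotypes in whole leukemia, 5 of the 10 were higher and 5 lower in knockout, with a median of 0.01. Without the number-2 knockout arrays all 10 were higher there, with a median of 0.08.

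The 12 citric acid cycle enzymes tested were all higher in knockout L-GMP than in knockout whole leukemia, with a median of 0.38. Of the genes with the lowest p, Idh3g, a subunit of isocitrate dehydrogenase, had a difference of 0.53 (SE 0.15) and Suclg1, of succinyl-CoA ligase, had 0.54 (SE 0.19). Without the number-2 arrays 8 were higher and 4 lower, with a median of 0.11. In whole leukemia 10 of the 12 were lower and 2 higher in knockout, with a median of -0.26, and without those arrays the counts were 8 and 4 and the median was -0.11. Of the 16 ATP synthase subunits, 12 were higher and 4 lower in knockout L-GMP, with a median of 0.02, and without the number-2 arrays this turned to 5 higher and 11 lower, with a median of -0.03. Of the 19 complex IV assembly factors, 6 were higher and 13 lower there, with a median of -0.12 (5 and 14 without those arrays, again -0.12), and Cox20, which helps insert a subunit, had -0.36 (SE 0.12).

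5 members had more than 1 probe set of their own. For Ndufa11, a complex I accessory subunit, the chosen probe set gave -0.12 in whole leukemia knockout and the other probe set 0.39. For Ndufa12 both were negative, at -0.45 and -0.18. For Cox7b the chosen probe set gave 0.22 in wild-type L-GMP against whole leukemia and -0.23 in L-GMP knockout. Its other probe set, with a lower mean of 5.68, gave -0.01 and 0.02. Another 10 probe sets carry a symbol of the member families with that of another gene and were left out of the rule. Some of them stand for Ndufs1, Uqcrb and Ndufs5, which are members through other probe sets. The rest stand for Uqcr10, Ndufs6, Cox6c, Ndufb4 and Ndufb2, which are therefore not among the members. None of the 10 passed limma, and the 1 with an unadjusted p under 0.05 in knockout L-GMP against whole leukemia, for Ndufb2 and Adck2, had 0.56 (SE 0.22).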

How the data were processed

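The series holds 12 one-colour array samples in 4 groups of 3. Log2 intensity was computed from the deposited linear intensity values; the authors' software and normalization: not given in the sources used here. Probe sets were named from GEO's platform annotation: of 33794, 23521 had 1 symbol, 1814 several and 8459 none, and members were looked up in RefSeq, where all 62 matched. The fit was limma 3.58.1 (R 4.3.3, statmod 1.5.0) with 1 mean per group, on 17749 genes above the lowest 25%, with Benjamini-Hochberg adjustment over all of them, and the arrays were used to estimate 8 residual degrees of freedom. It was tested on simulated data. Named genes were the succinate dehydrogenase, core and isoform genes and the 3 largest differences each way per comparison. Members and lists were chosen with earlier results of these data known. Alternatives were filters, normalization, array weights, a block by array number, a block by genotype and number, and leaving out arrays. The numbers of arrays pair wild-type whole leukemia with wild-type L-GMP (correlations 0.36, 0.62 and 0.30), but not every knockout pair exceeded 0.1 (0.13, 0.09 and 0.43). With 3 arrays a group, precision is limited by their number.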

Additional observations from a re-analysis of the deposited data

How the results depend on the processing

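Over 22 planned settings and 1 chosen after seeing the data, 938 of 947 values for single named genes kept their direction and their side of the threshold, 7 changed sign and 2 passed the threshold. Both of the latter were Cox6b2 without knockout L-GMP array 1, at -1.17 in L-GMP and -0.86 averaged over populations. Part of the agreement was fixed by the settings and does not measure robustness. Leaving out an array of a group that is not compared cannot change a difference, and neither block changed one. No named member passed in the main fit, so keeping the side of the threshold meant not passing. Over the leave-one-out settings the count of members passing ranged from 0 to 1 in L-GMP knockout against wild type and in the average over populations, and was 0 in the other 5 comparisons. With array weights the sign changed for Ndufs8 in L-GMP knockout against wild type (-0.01), Cox6b2 in knockout L-GMP against whole leukemia (0.11), the Cox6b2 difference of genotype effects (0.07) and that of Ndufa6 (-0.11). Leaving out single arrays moved Ndufa4 in L-GMP from -0.06 to 0.46 and Cox6b2 in knockout L-GMP against whole leukemia from -0.53 to 0.02. Without the number-2 knockout arrays, Ndufa4 was also at -0.06, the median of the members in knockout L-GMP against whole leukemia was -0.09, and that of the difference of genotype effects was -0.16. Leaving out single arrays moved the median of the members between -0.13 and 0.07 in L-GMP knockout against wild type, between -0.13 and 0.01 in whole leukemia, between -0.03 and 0.16 in wild-type L-GMP against whole leukemia, between -0.12 and 0.13 for the difference of genotype effects, between -0.09 and 0.01 for knockout against wild type averaged over populations, and between -0.03 and 0.19 in knockout L-GMP against whole leukemia, so their signs depended on single arrays. The causes were not tested. A block by array number across all 4 groups passed 0 members in each of the 7 comparisons. Cox6b2 then had -0.85 in L-GMP, -0.55 in whole leukemia and -0.70 on average (limma adjusted p = 0.864, 0.752 and 0.282). That block ties wild-type to knockout arrays of the same number. These correlated at 0.03, -0.10 and 0.06 in whole leukemia and at -0.01, 0.19 and 0.00 in L-GMP. A block by genotype and number also passed 0 members in each comparison. Its Cox6b2 differences were the same (limma adjusted p = 0.848, 0.83 and 0.374), so neither block changed a call. Groups of 3 arrays limit what these tests could pass.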

Other observations

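Other genes of respiratory chain function had values not given above, and none passed limma. In knockout L-GMP against whole leukemia 15 of 16 complex I assembly factors were higher, with a median of 0.20 against 0.01 for all genes, but without the number-2 knockout arrays the direction reversed, to 5 higher and 11 lower with a median of -0.08. In the same comparison 8 of 10 genes of coenzyme Q synthesis were higher, with a median of 0.22, and without those arrays 7 were higher and 3 lower, with a median of 0.06. Of 12 regulators of mitochondrial biogenesis, 11 were higher there, with a median of 0.14, and without those arrays 6 were higher and 6 lower, with a median of -0.01. In knockout against wild-type L-GMP, Coq8b, of coenzyme Q synthesis, had -0.56 (SE 0.16), while that list had 7 genes higher and 3 lower (median 0.03). The transcription factor gene Nrf1 had -0.37 (SE 0.14), with its arrays not overlapping. Of all genes, 9.48% did not overlap there and 3.66% were lower without overlap. The biogenesis regulators, which include Nrf1, were 8 higher and 4 lower (median 0.08). Without the number-2 knockout arrays the splits were 3 and 7 (-0.06) for coenzyme Q synthesis and 4 and 8 (-0.10) for the regulators.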
